A study of Homo sapiens with 4 samples.

Results

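The 32 genes described here encode the heterogeneous nuclear ribonucleoproteins (hnRNPs) and closely related RNA-binding proteins. They were chosen by name, from HNRNPA0 to TARDBP, and all 32 were found among the 56303 features of the deposited count table. The cells were Huh7, a hepatocellular carcinoma line of human origin, and the assay was RNA immunoprecipitation (RIP) of RBM39, a splicing factor that binds RNA, followed by sequencing. The groups were the RBM39 immunoprecipitate (IP) and the input RNA of cells given a plasmid with a hairpin against RBM39 (shRBM39), and the IP and input of cells with a control hairpin (shControl). Each of these 4 groups had 1 library, and none was an IP with a control antibody, so recovery through RBM39 and recovery by other routes cannot be told apart. The labels give the plasmid transfection, but no clone and no time after it. Recovery below means IP over input.

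hnRNPs are abundant nuclear proteins that coat nascent transcripts and act in splicing, 3′ end processing, export, stability and translation. Many of them oppose or assist SR proteins at splice sites, and several limit their own mRNA through exons whose inclusion or skipping leads to decay. The families differ in how they touch RNA: most carry RNA recognition motifs, HNRNPK and the PCBP proteins carry KH domains that hold C-rich RNA, and HNRNPU is best known as a scaffold-associated protein.

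The library totals lay between 20858382 and 45812488 counts. With 1 library per group the pairwise ratios have no replicate check, so their 95% intervals, given in parentheses, cover counting error only. Of counts from 3 to 6, between 71.4% and 75.6% were even, the pattern of mates counted singly, so these intervals are too narrow to an unknown degree. All 32 genes had at least 10 counts in at least 2 libraries and were therefore among the 19210 compared features. The fewest counts of any of them in a library were 123 (PTBP2, shRBM39 input) and the most were 244750 (HNRNPA1, shRBM39 IP). Levels are given as CPM, counts set to a common library size after scaling by TMM, a trimmed mean of the ratios between libraries. They carry no correction for transcript length and compare libraries, not genes. The RBM39 transcript itself was at 370 CPM in the shRBM39 input and 403 CPM in the shControl input, 0.917 times the control level, so directions refer to the libraries as labelled. Of the 11 hepatocyte markers, which include ALB and AFP, all were detected, with a summed level of 5745 CPM in the shRBM39 IP, 13662 in the shRBM39 input, 10180 in the shControl IP and 14737 in the shControl input. The 4 leukocyte markers summed to between 7.77 and 17.2 CPM, the 3 endothelial ones to between 3.80 and 8.68 and the 4 fibroblast ones to between 2.27 and 3.54, with DCN at 0 in all libraries and PTPRC at 0 in all but the shRBM39 input, where it had 2 counts. The cholangiocyte list summed to between 202 and 395 CPM, with KRT7 at 0 to 2 counts and SOX9 the main part. EPCAM, the remaining marker of that list, was at 36.0 to 85.5 CPM. It was lower in each IP than in its input, whereas SOX9 was higher. Mitochondrial and small structured RNAs took 0.703% of the counts of the shRBM39 IP, 6.62% of the shRBM39 input, 0.467% of the shControl IP and 10.1% of the shControl input. These shares and the hepatocyte sum move with the fraction, and their part in the ratios below was not tested. The hepatocyte markers did not all move alike. HNF4A was higher in each IP than in its input, and in shControl cells so were APOA1 and GPC3. The remaining markers of that list were lower in each IP than in its input.

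hnRNP mRNAs were mostly a little more abundant in IP than in input RNA. In shRBM39 cells 30 of the 32 had a ratio above 1, with a median log2 ratio of 0.48, against 0.02 over all compared features. In shControl cells 28 of 32 were above 1, with a median of 0.37, against -0.01 over all features. The distance of the members' median from that of all features, which does not depend on the scaling of the libraries, was 0.46 in shRBM39 cells and 0.38 in shControl cells. Most of these ratios were modest. At 2-fold, 0 members were higher in the IP of shRBM39 cells, where 5.29% of all features were, and 2 were higher in shControl cells, where 7.70% of all features were. At 1.5-fold, 11 members (34.4%) were higher in shRBM39 cells against 15.5% of all features, and 11 (34.4%) in shControl cells against 18.9%. The 2 sets of 11 shared 10 genes, and the overlap of the matching sets over all features was not counted. With libraries scaled to total counts, 3 members in place of 11 were at least 1.5-fold higher in the shRBM39 IP. That scaling also lowered the median of all features there, from 0.02 to -0.09, and their share at 1.5-fold was not counted under it. Lower recovery was rare: at 1.5-fold, 1 member was lower in shRBM39 cells (17.4% of all features) and 2 in shControl cells (20.6%). The same 2 genes, PTBP2 and PTBP3, were also past 2-fold in shControl cells, where 11.3% of all features were lower.

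For a test, the 4 libraries were fitted together by edgeR (quasi-likelihood), with fraction as the term of interest and culture as a block. Only 1 residual degree of freedom is left, so the error holds whatever truly differs between the cultures. With Benjamini-Hochberg adjusted p under 0.05 over all features, 14 of the 32 members were higher in the IP, against 19.3% of all features, and 2 were lower, against 17.6%. The 14 were HNRNPA0, HNRNPF, HNRNPH1, HNRNPH2, HNRNPK, HNRNPL, HNRNPUL1, HNRNPUL2, PTBP1, PCBP1, PCBP4, RALY, RBMX and ELAVL1. The lower members were PTBP2 and PTBP3. HNRNPUL1 passed narrowly, with an adjusted p of 0.0499 in that edgeR test, and it and HNRNPUL2 did not pass with total-count scaling (edgeR adjusted p = 0.111 and 0.093).

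**Figure D1:**
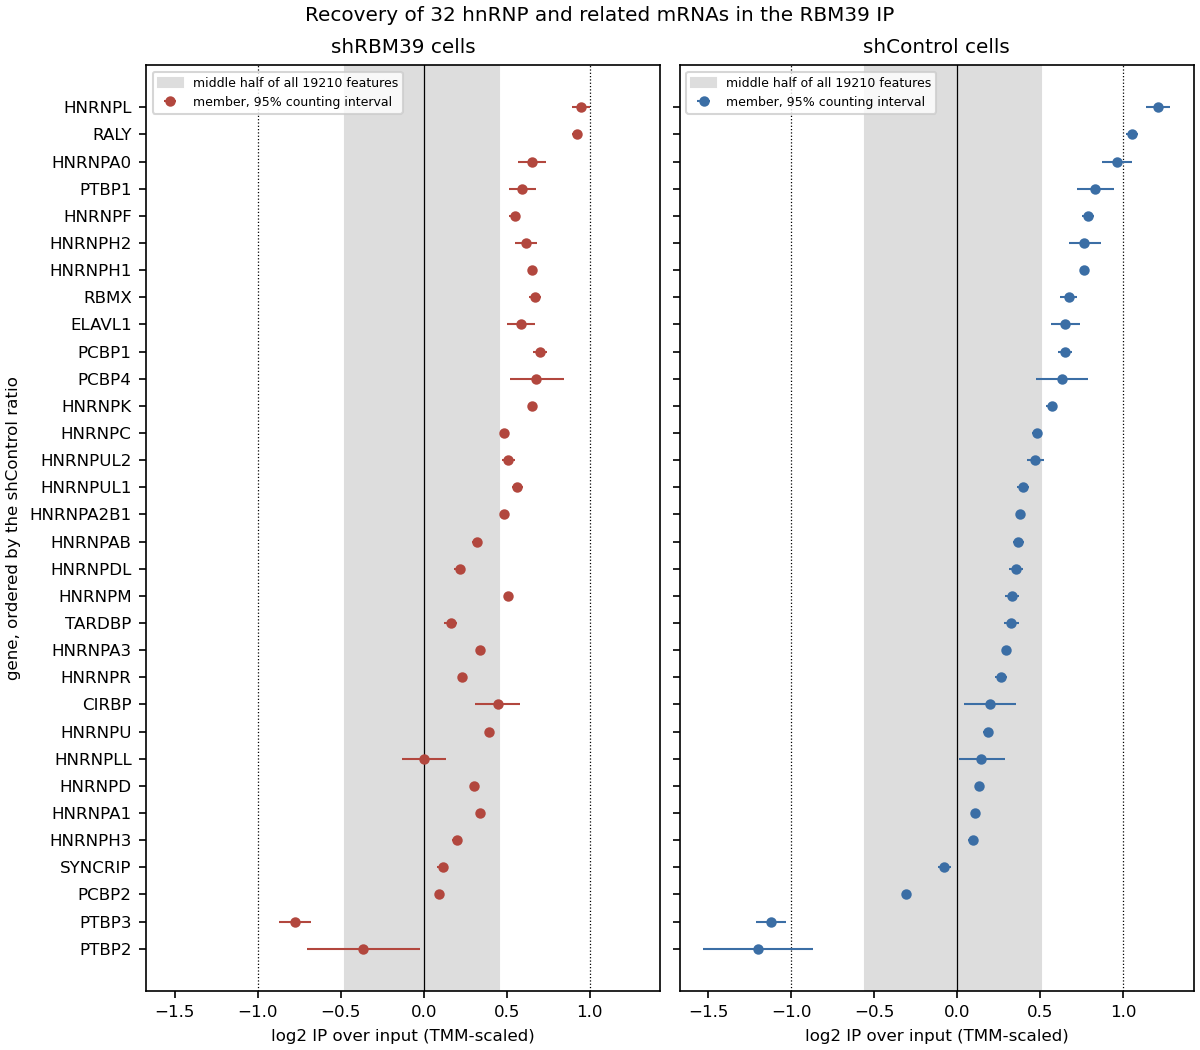
Log2 ratio of IP over input (horizontal axis, TMM-scaled) for each of the 32 genes in shRBM39 cells (left) and shControl cells (right). Points are single libraries' ratios with 95% counting intervals, the grey band spans the lower to the upper quartile of all 19210 features and dotted lines mark 2-fold. HNRNPL and RALY stand at the top of both panels and PTBP2 and PTBP3 at the bottom.

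The polypyrimidine tract-binding proteins gave the widest spread within a family. PTBP1, a repressor of exons that is the main form in most non-neuronal cells, was at 115 CPM in the IP and 76.3 CPM in the input of shRBM39 cells, against 68.6 CPM in the IP and 38.5 CPM in the input of shControl cells. Both IPs were above their inputs, by a log2 ratio of 0.59 (0.51 to 0.67) in shRBM39 cells and 0.83 (0.72 to 0.95) in shControl cells, and PTBP1 rose in the edgeR test (log2 0.71, adjusted p = 0.00106). PTBP2, the form known from neurons, was at 4.39 CPM in the IP and 5.65 CPM in the input of shRBM39 cells, against 3.27 CPM in the IP and 7.51 CPM in the input of shControl cells. Its recovery was below 1 in both cultures, with a log2 ratio of -0.36 (-0.70 to -0.02) in shRBM39 cells and -1.20 (-1.53 to -0.87) in shControl cells, and it fell in the edgeR test (log2 -0.78, adjusted p = 0.0144) but not in DESeq2 (adjusted p = 0.0902). PTBP3, a paralog first described in blood cell differentiation, was at 45.5 CPM in the IP and 77.9 CPM in the input of shRBM39 cells, against 45.3 CPM in the IP and 98.7 CPM in the input of shControl cells. Both IPs held less PTBP3 than their inputs, with a log2 ratio of -0.78 (-0.87 to -0.68) in shRBM39 cells and -1.12 (-1.21 to -1.03) in shControl cells, and PTBP3 fell in the edgeR test (log2 -0.95, adjusted p = 8.72e-05). Set against PTBP3 within the same libraries, the recovery of PTBP1 was 2.58 times higher in shRBM39 cells and 3.88 times higher in shControl cells, a log2 gap of 1.37 (1.24 to 1.49) in shRBM39 cells, and of 1.96 (1.81 to 2.10) in shControl cells, that no library scaling can change. The annotated gene spans differ as well. PTBP1 spans 14861 bases (chromosome 19, 797452 to 812312), PTBP2 101956 bases (chromosome 1, 96721784 to 96823739) and PTBP3 162168 bases (chromosome 9, 112217715 to 112379882). These positions are from RefSeq (GRCh38). The widest and next widest spans of the 32 are those of PTBP3 and PTBP2. RALY comes after them at 90974 bases, and its log2 recovery was 0.92 in shRBM39 cells and 1.05 in shControl cells. A link between span and recovery was not tested.

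HNRNPL and its paralog HNRNPLL, which bind CA-rich RNA, were also recovered unequally. HNRNPL (chromosome 19, 38836370 to 38852347) was at 333 CPM in the IP and 173 CPM in the input of shRBM39 cells, against 201 CPM in the IP and 87.0 CPM in the input of shControl cells. This was the highest recovery of the 32 in both cultures, with a log2 ratio of 0.95 (1.93-fold) in shRBM39 cells and 1.21 (1.14 to 1.28; 2.31-fold) in shControl cells, and an edgeR log2 value of 1.08 (adjusted p = 6.53e-05). HNRNPLL, known for the alternative splicing of CD45 in lymphocytes, was at 33.1 CPM in the IP and 33.0 CPM in the input of shRBM39 cells, against 31.6 CPM in the IP and 28.5 CPM in the input of shControl cells. These levels hardly differ, with log2 ratios of 0.00 (-0.13 to 0.14) in shRBM39 cells and 0.15 (0.01 to 0.28) in shControl cells. The gap between HNRNPL and HNRNPLL was 0.94 (0.80 to 1.08) in shRBM39 cells and 1.07 (0.91 to 1.22) in shControl cells.

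RALY, a nuclear protein related to the C-type hnRNPs, was at 866 CPM in the IP and 457 CPM in the input of shRBM39 cells, against 680 CPM in the IP and 328 CPM in the input of shControl cells. It was next to HNRNPL in recovery, with log2 ratios of 0.92 (0.89 to 0.96) in shRBM39 cells and 1.05 (1.01 to 1.09) in shControl cells, and it rose in the edgeR test (log2 0.99, adjusted p = 0.000511). HNRNPC, which binds uridine tracts and measures transcript length, was at 960 CPM in the IP and 686 CPM in the input of shRBM39 cells, against 670 CPM in the IP and 481 CPM in the input of shControl cells. Its log2 ratios, 0.49 and 0.48, were near each other, and it did not pass the edgeR test (adjusted p = 0.0596) but passed in DESeq2 (adjusted p = 0.0214). The gap of RALY over HNRNPC was 0.44 (0.40 to 0.48) in shRBM39 cells and 0.57 (0.52 to 0.62) in shControl cells.

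Among the F and H proteins, which bind G-rich RNA, HNRNPH3 stood apart. HNRNPF was at 647 CPM in the IP and 442 CPM in the input of shRBM39 cells, against 623 CPM in the IP and 362 CPM in the input of shControl cells (log2 ratios of 0.55 and 0.79). HNRNPH1 was at 1793 CPM in the IP and 1141 CPM in the input of shRBM39 cells, against 962 CPM in the IP and 566 CPM in the input of shControl cells (0.65 and 0.77). HNRNPH2 was at 164 CPM in the IP and 107 CPM in the input of shRBM39 cells, against 87.1 CPM in the IP and 51.2 CPM in the input of shControl cells (0.62 and 0.77). All 3 rose in the edgeR test, with adjusted p of 0.00935 for HNRNPF, 0.0117 for HNRNPH1 and 0.00152 for HNRNPH2. HNRNPH3 was at 746 CPM in the IP and 649 CPM in the input of shRBM39 cells, against 591 CPM in the IP and 553 CPM in the input of shControl cells. Its log2 ratios were only 0.20 (0.17 to 0.23) and 0.09 (0.06 to 0.13), which put it 0.45 (0.42 to 0.49) below HNRNPH1 in shRBM39 cells and 0.67 (0.63 to 0.71) below it in shControl cells.

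The KH domain proteins also split. HNRNPK was at 1132 CPM in the IP and 721 CPM in the input of shRBM39 cells, against 654 CPM in the IP and 441 CPM in the input of shControl cells, with log2 ratios of 0.65 and 0.57 and an edgeR adjusted p of 0.0202. PCBP1, a single-exon gene that arose by retrotransposition, was at 499 CPM in the IP and 307 CPM in the input of shRBM39 cells, against 422 CPM in the IP and 269 CPM in the input of shControl cells (0.70 and 0.65; adjusted p = 0.00595, edgeR). PCBP4 was at 29.7 CPM in the IP and 18.6 CPM in the input of shRBM39 cells, against 31.3 CPM in the IP and 20.2 CPM in the input of shControl cells (0.68 and 0.63; adjusted p = 0.00205, edgeR). The edgeR log2 values of these 3 were alike, 0.61 for HNRNPK, 0.67 for PCBP1 and 0.65 for PCBP4. PCBP2, which stabilises C-rich mRNAs and also acts in the innate immune response, did not follow them. It was at 1028 CPM in the IP and 963 CPM in the input of shRBM39 cells, against 923 CPM in the IP and 1144 CPM in the input of shControl cells. The log2 ratio of PCBP2 was 0.09 (0.07 to 0.12) in shRBM39 cells and -0.31 (-0.33 to -0.29) in shControl cells, so the 2 cultures had opposite signs. PCBP1 stood above PCBP2 by 0.61 (0.56 to 0.65) in shRBM39 cells and 0.96 (0.91 to 1.01) in shControl cells.

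The A/B-type hnRNPs ranged in recovery from HNRNPA0, the highest, to HNRNPDL in shRBM39 cells and HNRNPA1 in shControl cells. HNRNPA0, which binds AU-rich mRNAs, was at 109 CPM in the IP and 69.5 CPM in the input of shRBM39 cells, against 111 CPM in the IP and 57.0 CPM in the input of shControl cells. Its log2 ratios were 0.65 (0.57 to 0.74) and 0.96 (0.87 to 1.05), and it rose in the edgeR test (log2 0.81, adjusted p = 0.000435). HNRNPA1, which represses splice sites, was at 5908 CPM in the IP and 4668 CPM in the input of shRBM39 cells, against 3657 CPM in the IP and 3389 CPM in the input of shControl cells. The ratios of HNRNPA1 were smaller, 0.34 (0.33 to 0.35) and 0.11 (0.10 to 0.12), and it did not pass the edgeR test (adjusted p = 0.516). HNRNPA2B1, known also for sorting RNAs in transport granules, was at 4602 CPM in the IP and 3294 CPM in the input of shRBM39 cells, against 2728 CPM in the IP and 2104 CPM in the input of shControl cells (0.48 and 0.37). It missed the threshold in edgeR (adjusted p = 0.174) and passed in DESeq2 (adjusted p = 0.0438). HNRNPA3 was at 1451 CPM in the IP and 1145 CPM in the input of shRBM39 cells, against 1049 CPM in the IP and 856 CPM in the input of shControl cells (0.34 and 0.29). HNRNPAB was at 692 CPM in the IP and 554 CPM in the input of shRBM39 cells, against 617 CPM in the IP and 478 CPM in the input of shControl cells (0.32 and 0.37). HNRNPD (AUF1), which promotes the decay of AU-rich mRNAs, was at 1134 CPM in the IP and 919 CPM in the input of shRBM39 cells, against 878 CPM in the IP and 802 CPM in the input of shControl cells (0.30 and 0.13). Its relative HNRNPDL was at 559 CPM in the IP and 481 CPM in the input of shRBM39 cells, against 390 CPM in the IP and 305 CPM in the input of shControl cells (0.22 and 0.35). Each of these last 4 was above its input in both cultures, with edgeR adjusted p between 0.168 and 0.433.

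The U-type members were all above input in both cultures, with HNRNPU the lowest among them. The gap of HNRNPU minus HNRNPUL1 was -0.17 (-0.21 to -0.13) in shRBM39 cells and -0.21 (-0.26 to -0.17) in shControl cells. HNRNPU (SAF-A), which binds nuclear RNA and chromatin, was at 2166 CPM in the IP and 1646 CPM in the input of shRBM39 cells, against 805 CPM in the IP and 708 CPM in the input of shControl cells (0.40 and 0.18; adjusted p = 0.309, edgeR). HNRNPUL1 was at 605 CPM in the IP and 409 CPM in the input of shRBM39 cells, against 508 CPM in the IP and 386 CPM in the input of shControl cells (0.56 and 0.40). HNRNPUL2 was at 440 CPM in the IP and 309 CPM in the input of shRBM39 cells, against 266 CPM in the IP and 192 CPM in the input of shControl cells (0.51 and 0.47; adjusted p = 0.0326, edgeR). For HNRNPU the cultures differed more than the fractions, and both values of shRBM39 cells were above both of shControl cells. That order also held for HNRNPUL2, HNRNPH1, HNRNPA1 and HNRNPR, among others, but not for HNRNPUL1, HNRNPF or RALY. HNRNPM, a regulator of alternative exons, showed the same order of libraries, with 1132 CPM in the shRBM39 IP and 796 in its input, and 385 CPM in the shControl IP and 307 in its input (0.51 and 0.33; adjusted p = 0.100, edgeR). The HNRNPM and HNRNPK counts in the shRBM39 IP are both 46911 in the deposited table.

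HNRNPR and SYNCRIP (hnRNP Q), close paralogs that act in mRNA transport and translation, were near the input level. HNRNPR was at 825 CPM in the IP and 702 CPM in the input of shRBM39 cells, against 552 CPM in the IP and 460 CPM in the input of shControl cells (0.23 and 0.26; adjusted p = 0.334, edgeR). SYNCRIP was at 644 CPM in the IP and 595 CPM in the input of shRBM39 cells, against 387 CPM in the IP and 409 CPM in the input of shControl cells. Its log2 ratio was 0.11 (0.08 to 0.14) in shRBM39 cells and -0.08 (-0.11 to -0.04) in shControl cells.

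Of the remaining members, RBMX (hnRNP G), an X-linked splicing regulator, was at 547 CPM in the IP and 344 CPM in the input of shRBM39 cells, against 319 CPM in the IP and 200.5 CPM in the input of shControl cells. RBMX had the same log2 ratio, 0.67, in both cultures (adjusted p = 0.00589, edgeR). ELAVL1 (HuR), which stabilises AU-rich mRNAs, was at 105 CPM in the IP and 70.0 CPM in the input of shRBM39 cells, against 95.5 CPM in the IP and 60.8 CPM in the input of shControl cells (0.59 and 0.65; adjusted p = 0.00298, edgeR). CIRBP, a protein induced by mild cold, was at 38.7 CPM in the IP and 28.4 CPM in the input of shRBM39 cells, against 24.6 CPM in the IP and 21.5 CPM in the input of shControl cells (0.45 and 0.19; adjusted p = 0.102, edgeR). TARDBP (TDP-43), which binds UG repeats and limits its own mRNA, was at 388 CPM in the IP and 347 CPM in the input of shRBM39 cells, against 311 CPM in the IP and 248 CPM in the input of shControl cells (0.16 and 0.33; adjusted p = 0.297, edgeR). The level of all 4 was above the input in each culture.

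**Figure D2:**
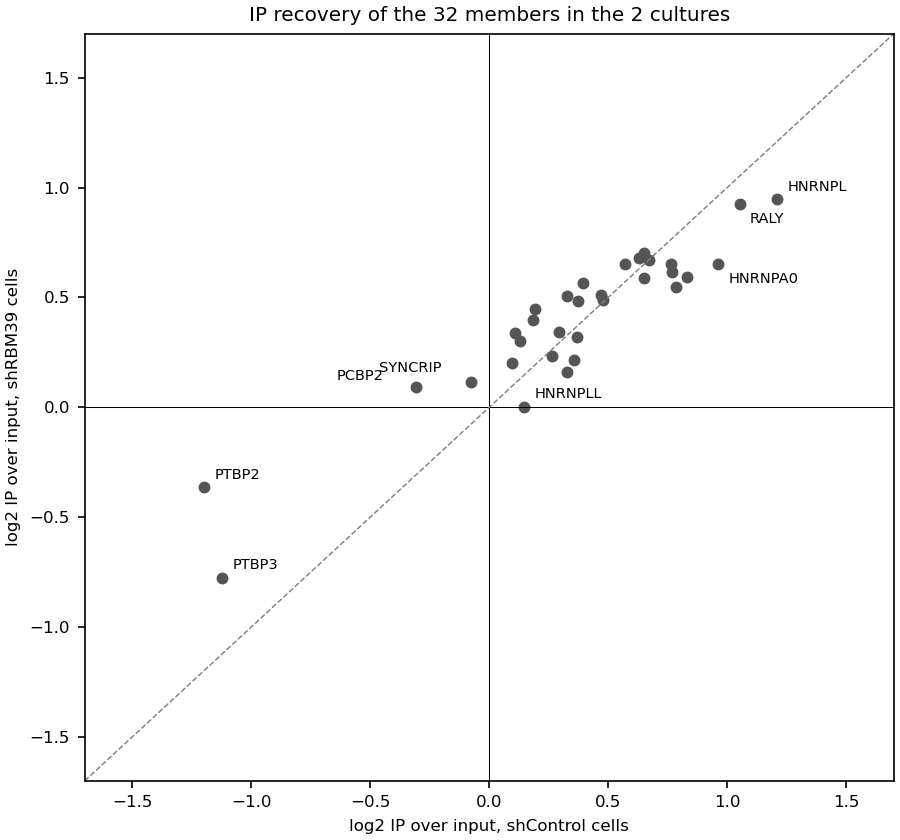
Log2 IP over input in shRBM39 cells (vertical axis) against the same in shControl cells (horizontal axis) for the 32 genes, each point from 1 pair of libraries per culture. The dashed line marks equal recovery. PTBP2 lies farthest above it at 0.83, and HNRNPA0 farthest below it at -0.31, while PCBP2 and SYNCRIP have opposite signs in the 2 cultures.

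The change of recovery with the hairpin was small for these genes. The difference of the log2 ratios, shRBM39 minus shControl, had a median of 0.04 over the 32 members, against -0.00 over all features. It ranged from -0.31 for HNRNPA0 (-0.43 to -0.19) to 0.83 for PTBP2 (0.37 to 1.29). At 2-fold, 0 members were higher, where 4.39% of all features were, and 0 lower, where 2.74% were. At 1.5-fold, PTBP2 alone was higher (7.95% of all features) and 0 members were lower (6.83%). PTBP2 rests on 123 to 182 counts per library, the fewest of the 32. After PTBP2 the largest differences were 0.40 for PCBP2 (0.37 to 0.44) and 0.35 for PTBP3 (0.22 to 0.48). The interval excluded 0 above for 14 members and below for 10, and held 0 for 8. The matching share of all features was not counted. Where counts are high the interval excludes 0 at small differences, such as 0.05 for HNRNPA3 (0.02 to 0.08). The signs of the differences depend on the scaling. With total counts the median of the members became -0.15 and that of all features -0.20. Their distance is again 0.05, and scaling cannot move it. The RBM39 transcript, for comparison, had a difference of 1.23 (1.18 to 1.27).

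The abundance of these mRNAs in input RNA differed more between the cultures. Of the 32, 28 were higher in the shRBM39 input than in the shControl input, with a median log2 ratio of 0.47, against -0.01 over all features, a distance of 0.48 that no scaling can change. At 2-fold, 4 members (12.5%) were higher, against 5.10% of all features, and 0 were lower, against 5.74%. At 1.5-fold, 12 members (37.5%) were higher, against 12.7%, and 0 lower, against 11.9%. Scaled to total counts, 2 members in place of 4 passed 2-fold. The median of all features then moved from -0.01 to -0.09, and their share at 2-fold was not counted under that scaling. The bulk libraries cannot tell more RNA per cell from a different mix of cells. HNRNPM led, at 2.59 times the shControl level (log2 1.38, 1.33 to 1.42), followed by HNRNPU at 2.32 times (1.22, 1.19 to 1.24). Next were HNRNPH2 at 2.09 times (1.06, 0.96 to 1.17) and HNRNPH1 at 2.02 times (1.01, 0.98 to 1.04). HNRNPH2 overlaps another counted feature, RPL36A-HNRNPH2, which stood at 0.05 in this ratio. How reads were divided between them is not known, so the HNRNPH2 call is uncertain. HNRNPL (0.99, 0.91 to 1.07) and PTBP1 (0.99, 0.86 to 1.11) were just short of 2-fold. RBMX (0.78), HNRNPK (0.71), HNRNPUL2 (0.68), HNRNPDL (0.66), HNRNPA2B1 (0.65) and HNRNPR (0.61) completed the 12. PTBP2 (-0.41, -0.76 to -0.06), PTBP3 (-0.34, -0.44 to -0.25) and PCBP2 (-0.25, -0.27 to -0.22) were lower in the shRBM39 input, and PCBP4 (-0.12, -0.32 to 0.08) was within counting error. The paralogs again differed. PTBP1 stood 1.33 (1.18 to 1.48) above PTBP3 in this ratio, HNRNPU 1.14 (1.08 to 1.19) above HNRNPUL1, which was at 0.08, and HNRNPL 0.78 (0.61 to 0.96) above HNRNPLL. Both input libraries also enter the recovery ratios, so the comparisons share libraries. Summed over the 32 genes, the members held 2.69% of the counts of the shRBM39 IP, 2.18% of the shRBM39 input, 2.08% of the shControl IP and 1.60% of the shControl input.

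**Figure D3:**
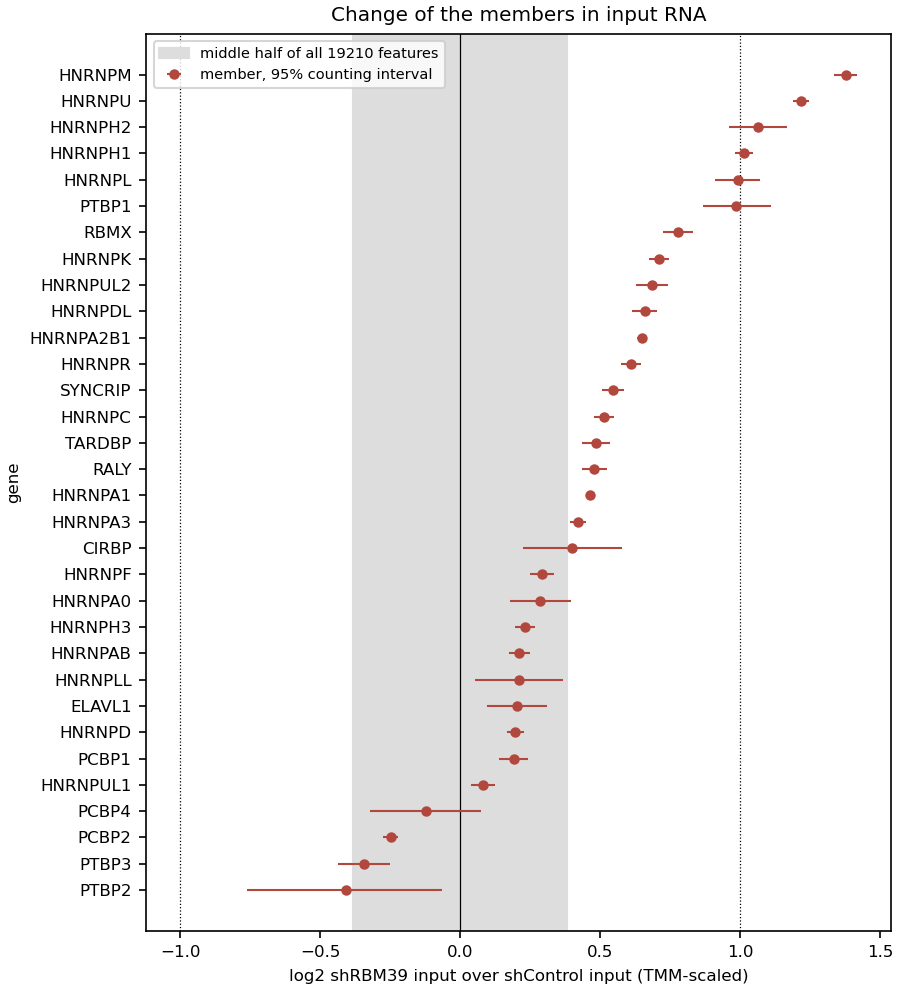
Log2 ratio of the shRBM39 input over the shControl input (horizontal axis, TMM-scaled) for the 32 genes, with 95% counting intervals, 1 library per group. The grey band spans the lower to the upper quartile of all 19210 features and dotted lines mark 2-fold. HNRNPM, HNRNPU, HNRNPH2 and HNRNPH1 lie past 2-fold on the higher side, and PTBP2 is lowest at -0.41.

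**Figure D4:**
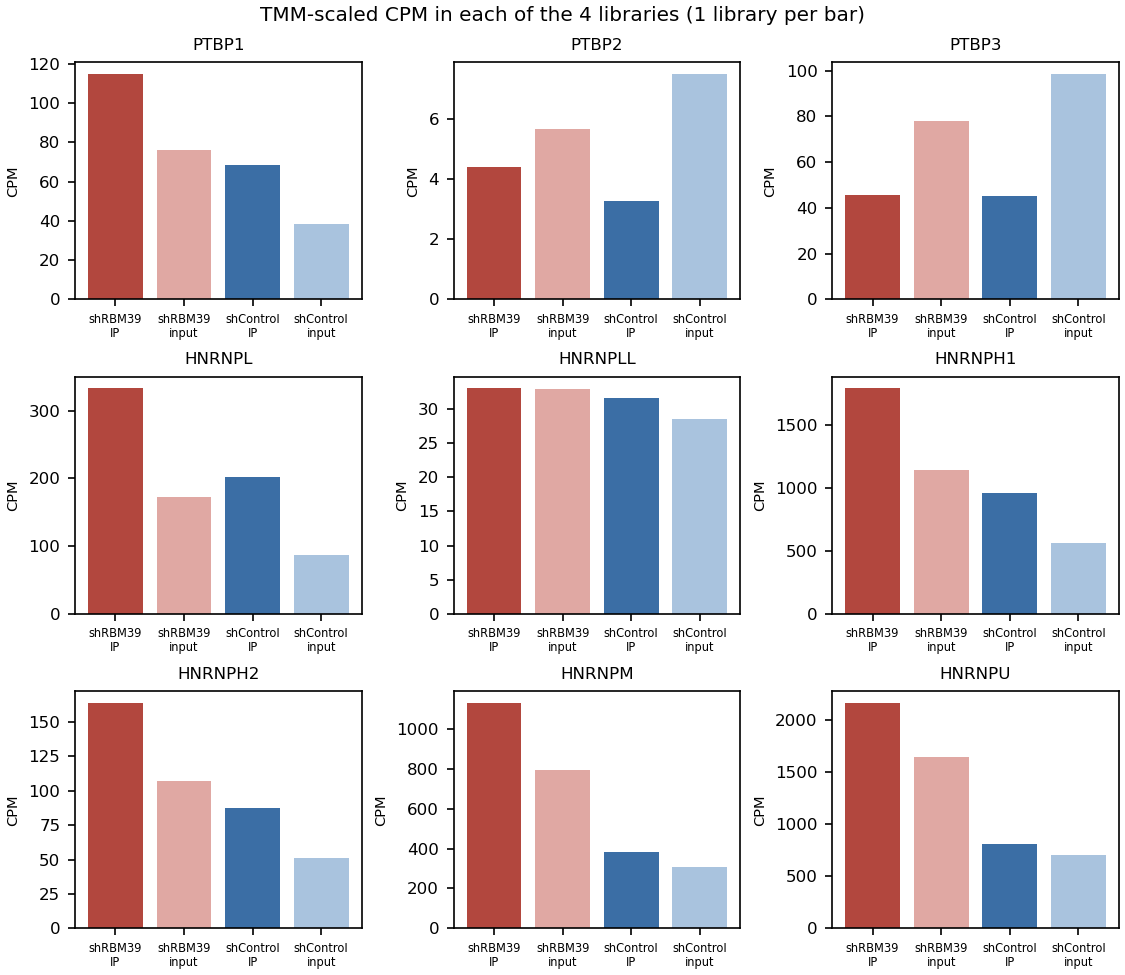
TMM-scaled CPM (vertical axes, starting at 0, a separate scale for each gene) of 9 members in the shRBM39 IP, shRBM39 input, shControl IP and shControl input, 1 library per bar. PTBP1, HNRNPL, HNRNPH1, HNRNPH2, HNRNPM and HNRNPU, and HNRNPLL slightly, are higher in each shRBM39 library than in the shControl library of the same fraction. PTBP2 and PTBP3 are lower in each IP than in its input.

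The DNA just before the start sites of the members was read from RefSeq (GRCh38.p14), 250 bases for each annotated start. Of the 32 genes 30 had an entry, with 44 windows in all, because 9 genes have several starts. The sequences of the 3 genes with the largest input ratios follow, each with 1 annotated start, given 5′ to 3′ on the gene's strand with motif letters in capitals. HNRNPM lies at chr19:8444725-8444974 on the plus strand, HNRNPU at chr1:244864544-244864793 on the minus strand and HNRNPH2 at chrX:101407972-101408221 on the plus strand.
HNRNPM: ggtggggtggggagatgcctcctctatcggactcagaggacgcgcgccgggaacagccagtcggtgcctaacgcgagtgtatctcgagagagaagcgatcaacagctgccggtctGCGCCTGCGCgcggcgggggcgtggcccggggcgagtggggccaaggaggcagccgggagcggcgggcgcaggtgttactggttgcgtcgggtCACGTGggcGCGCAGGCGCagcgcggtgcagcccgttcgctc
HNRNPU: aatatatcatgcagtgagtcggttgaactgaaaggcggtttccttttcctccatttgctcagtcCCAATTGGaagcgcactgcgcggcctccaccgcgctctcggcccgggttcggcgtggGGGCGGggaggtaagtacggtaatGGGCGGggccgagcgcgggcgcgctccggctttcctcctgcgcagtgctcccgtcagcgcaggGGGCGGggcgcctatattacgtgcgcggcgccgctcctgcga
HNRNPH2: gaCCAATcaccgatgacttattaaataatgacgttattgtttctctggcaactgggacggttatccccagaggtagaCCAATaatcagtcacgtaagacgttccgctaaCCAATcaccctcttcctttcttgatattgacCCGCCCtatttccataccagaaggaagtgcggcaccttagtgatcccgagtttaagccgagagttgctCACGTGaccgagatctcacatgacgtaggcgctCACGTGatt
Motifs were searched on both strands, namely the GC box with the letters GGGCGG, the CCAAT box by its own letters, the ETS core with the letters CCGGAAG, the E-box with the letters CACGTG, the TATA box as TATAAA, and the NRF1 motif. HNRNPM holds the NRF1 letters at 2 places and 1 E-box, HNRNPU 3 GC boxes and CCAAT at 2 places that overlap on opposite strands, and HNRNPH2 CCAAT at 3 places, 2 E-boxes and 1 GC box. These 3 windows thus share no one motif. Over the members' windows, GC boxes were in 33 of 44 (75%), against 42.6% of all 35116 windows in the table. CCAAT was in 21 (47.7%, against 32%), the E-box in 7 (15.9%, against 6.34%), the ETS core in 5 (11.4%, against 8.52%), the NRF1 letters in 4 (9.09%, against 5.07%) and TATAAA in 4 (9.09%, against 10.7%). The median GC content was 66.0% in the members' windows and 58.0% in all. The 35116 windows were not limited to genes compared here, whereas all members were compared. A gene with several starts enters these shares once per start. Such matches describe the letters and are not binding sites, and a link between them and the input ratios was not tested.

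The genes were next set beside 48 other RNA-binding proteins, a list that holds NONO, YBX1, PABPC1 and the like. That list had a median log2 recovery of 0.31 in shRBM39 cells and 0.09 in shControl cells, and 0.26 for the ratio of the inputs. The corresponding hnRNP medians were 0.48, 0.37 and 0.47. In the edgeR test 12 of the 48 (25%) rose and 6 (12.5%) fell, while 14 of the 32 hnRNP members (43.8%) rose and 2 (6.25%) fell. The highest recoveries in that list in shRBM39 cells were those of SAFB2 (1.01) and KHSRP (1.01), a decay-promoting KH protein, and of KHDRBS1 (0.86). In shControl cells KHSRP (1.12) and SAFB2 (1.08) led. The lowest were YBX1 (-0.79), MSI2 (-0.69) and FMR1 (-0.55) in shRBM39 cells, and YBX1 (-1.81), PABPC1 (-0.88) and MBNL2 (-0.83) in shControl cells. The difference between cultures was highest for SFPQ (1.07), YBX1 (1.02) and FXR1 (0.69), and among the low values were those of GRSF1 (-0.32) and FXR2 (-0.22). In input, NONO (1.36) was highest, SART3 (1.19) was also past 2-fold, and YBX1 (-0.54), MSI2 (-0.27) and YBX3 (-0.21) were lowest. At 1.5-fold 17 of the 48 (35.4%) were higher in the shRBM39 input, a share close to the 37.5% of the hnRNP members.

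Several members have copies or neighbours that could take or lend reads. The table held 131 features named as pseudogenes of members, of which 25 were compared, and 75 of the 131 belong to HNRNPA1. Their summed counts were small beside the parent, at most 1.83% (HNRNPC, shControl input). For HNRNPA1 they were 0.781% in the shRBM39 IP, 0.787% in its input, 0.839% in the shControl IP and 0.959% in its input. The 3 other features named after a member with most counts were RPL36A-HNRNPH2, HNRNPUL2-BSCL2 and PCBP1-AS1. HNRNPUL2-BSCL2, a readthrough transcript, had 17740 counts in the shRBM39 IP, 6420 in its input, 11909 in the shControl IP and 4042 in its input, against 18223, 6723, 12047 and 4147 for HNRNPUL2. The counts are near equal, as when reads are assigned to both features, so HNRNPUL2 is uncertain. RPL36A-HNRNPH2 had 67999 counts in the shRBM39 IP, 34255 in its input, 75810 in the shControl IP and 32888 in its input, and its log2 ratio between the inputs was 0.05, against 1.06 for HNRNPH2. How reads were divided between the readthrough and HNRNPH2 is not known, so HNRNPH2 is uncertain too. PCBP1-AS1, antisense to PCBP1, had log2 recoveries of 0.65 and 0.53, near those of PCBP1, and without a known strand setting their reads cannot be told apart. By annotation 19 of the 32 genes overlap another gene and 8 overlap a protein-coding one, among them HNRNPH3 (RUFY2 and PBLD), PCBP2 (MAP3K12) and HNRNPK (RMI1). RUFY2 had 9952 counts in the shRBM39 IP, 4253 in its input, 9247 in the shControl IP and 4133 in its input, and the strand setting is not known for this overlap either. Across the 32 genes, the Spearman correlation of recovery with the annotated gene span was -0.26 in shRBM39 cells and -0.18 in shControl cells, and with the shControl input level -0.21 and -0.28, a description of genes that share libraries.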

How the data were processed

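The authors deposited raw, unnormalized counts, 1 value per gene symbol and library, for 4 libraries whose columns carry the names of the samples. The tools in the submitters' processing notes are HISAT2 2.0.4, StringTie 1.3.4d and cutadapt 1.9, with hg38 as the build and no roles. Strand setting, counting program and annotation release: not given in the sources used here.

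A feature was kept when 2 or more libraries had 10 or more counts (19210 of 56303). TMM factors (edgeR 4.0.16, R 4.3.3) were 0.904 (shRBM39 IP), 0.979 (shRBM39 input), 1.09 (shControl IP) and 1.03 (shControl input). Log2 ratios were taken after adding 0.5 to each count, with Clopper-Pearson 95% intervals. Intervals of differences and gaps rest on the standard error of the counts. Features were counted as higher or lower at 2-fold and at 1.5-fold, with an interval that excluded equality. IP was tested against input with edgeR's quasi-likelihood test, culture as a block, adjusted over all features, and DESeq2 1.42.0 was the alternative. Both steps were tested on simulated data with known changes. The simulated counts held no mates counted singly, so they do not show how far the intervals are too narrow here. All 32 symbols matched RefSeq (GRCh38.p14), which gave positions and promoters.

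The members, lists and rules were chosen with earlier results of these data known. All 32 members could be named, with the 3 highest and 3 lowest of the other RNA-binding proteins in each comparison. Some of that list's values are not reported here. Alternatives were total counts, DESeq2 size factors, totals without mitochondrial and small RNAs, no filter, 5 added to each count and halved counts in the interval.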

Additional observations from a re-analysis of the deposited data

Results flagged for a closer look

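PCBP2 and SYNCRIP had opposite signs of IP over input in the 2 cultures, each with a counting interval that excluded equality, and the difference between cultures was not tested because each group had 1 library. PCBP2 had a log2 ratio of 0.09 in shRBM39 cells and -0.31 in shControl cells, a difference of 0.40. With total counts its ratios were -0.02 and -0.23, so the opposite signs were lost. SYNCRIP had a log2 ratio of 0.11 in shRBM39 cells and -0.08 in shControl cells, a difference of 0.19, which became -0.00 with total counts.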

How the results depend on the processing

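The median log2 ratio of the 32 members stayed above 0 under each alternative for recovery in both cultures and for the inputs, and turned below 0 for the difference between cultures under 2 scalings. With total counts the medians were 0.37 (shRBM39 recovery), 0.45 (shControl recovery), -0.15 (difference) and 0.39 (inputs), with 3 members at least 1.5-fold higher in the shRBM39 IP and 2 at least 2-fold higher in the shRBM39 input. With totals that leave out mitochondrial and small RNAs they were 0.28, 0.30, -0.092 and 0.34, with 2 members at least 1.5-fold higher in the shRBM39 IP, 1 at least 2-fold higher in the shControl IP, and 2 at 2-fold and 7 at 1.5-fold in the inputs. These scalings shift every feature alike: the median of all features became -0.09, 0.07, -0.20 and -0.09 with total counts, and -0.18, -0.07, -0.14 and -0.15 with the other totals. Without a filter on low counts the recovery medians were 0.60 and 0.46, with 2 members at 2-fold and 17 at 1.5-fold in the shRBM39 IP. Shares of all features at these fold thresholds were counted under the main scaling only. In the test over both cultures DESeq2 called 16 members higher, against 14 in edgeR, and 1 lower (PTBP3), against 2. Over all features it called 2598 higher and 2097 lower of 16230 with an adjusted p, and edgeR 3698 higher and 3381 lower of 19210. DESeq2 size factors and 5 added to each count moved none of the 128 member values beyond its counting interval. Halved counts widen the interval and leave the ratios as they are. No paired analysis was possible because each group holds 1 library with no replicate number of its own, beyond the culture block that the test over both cultures has. Without a filter the counts of the members stay the same and their ratios shift alike through the TMM factors. These became 0.861 (shRBM39 IP), 1.01 (shRBM39 input), 1.07 (shControl IP) and 1.08 (shControl input). The cause of the changed calls in DESeq2 was not tested. Depth limits PTBP2 most, with 123 to 182 counts.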
